A study of Mus musculus with 16 samples.

Results

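RNA levels of 33 genes of Wnt signalling were examined in protrusions and cell bodies of fibroblasts with normal or reduced Apc. The genes were chosen by name from the 13015 genes in the deposited table, and they cover Wnt ligands, the proteins that export ligands, secreted antagonists, Frizzled and other receptors, glypicans, Dishevelled and planar cell polarity proteins, and the TCF/LEF transcription factors. The cells were NIH/3T3, an established line of mouse embryonic fibroblasts. Before the assay they received either a control siRNA (siControl) or an Apc siRNA (siAPC), and the labels do not say which of the Apc siRNAs described in the study's methods was used for these libraries. All cells, siControl and siAPC alike, were starved of serum and plated for 2 h on a filter with 3.0 µm pores. Lysophosphatidic acid in the lower chamber then drew out protrusions during 1 h, and fixation took 10 min in 0.3% paraformaldehyde. Protrusions (Ps) were collected from the lower side of the filter and cell bodies (CB) from its upper side. Each combination of fraction and siRNA had 4 libraries, which makes 16. An siRNA lowers a transcript without removing it, and every result is from 1 cell line.

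Wnt ligands are secreted lipid-modified proteins that bind Frizzled receptors. In the canonical branch, a Frizzled and a coreceptor of the Lrp5/Lrp6 type recruit Dishevelled and so inhibit a destruction complex built on Apc and Axin, which otherwise marks β-catenin for degradation. The β-catenin that escapes enters the nucleus and binds TCF/LEF factors, and several of the genes that are then transcribed encode inhibitors or components of the same pathway. Other branches signal through Ror and Ryk receptors or through the planar cell polarity proteins Celsr, Vangl and Prickle, and act on cell shape and migration, which in fibroblasts includes the extension of protrusions.

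The gene names cover 70 protein-coding genes of the mouse annotation, of which 32 were listed in the table and the other 38 were not analysed here. Listed were 4 of 19 Wnt ligands, 6 of 10 Frizzled genes, 6 of 9 planar cell polarity genes, 1 of 6 glypicans and 1 of 8 secreted antagonists, while both coreceptors, all 3 Dishevelled genes and all 4 TCF/LEF genes were present. The 33rd listed gene, Rspo4os, matched by name only. It is a noncoding RNA antisense to the R-spondin gene Rspo4 and had 0 to 11 reads per library. The study's methods give a cutoff of log-CPM above 0.5 in at least 1 library. In the deposited values, however, 1298 genes, 5 of the 33 among them, stayed at or below a log2 CPM of 0.5 in every library, while each listed gene reached at least -1.01 somewhere. Of the 33 genes, 27 exceeded 0.5 CPM of listed reads in all 16 libraries. The other 6 did so in only some libraries, namely Wnt1 in 15, Prickle1 in 13, Lef1 in 7, Celsr3 in 3, and Celsr2 and Rspo4os in 2 each. Celsr2 and Celsr3 passed this level only in siAPC CB libraries and stayed at or below a log2 CPM of -1.29 in the other 3 groups, below the -1.01 that each listed gene reached. Rspo4os stayed at or below -1.16 in both siControl groups and reached -1.01 only in siAPC libraries.

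Libraries held 13466225 to 20296087 reads in listed genes, and 3 reads corresponded to a log2 CPM of -2.73 to -1.80. All 11 fibroblast markers examined were listed, at a summed level of 42155 to 45587 CPM in siControl CB and 26036 to 28456 CPM in siControl Ps, and of 53197 to 58724 CPM in siAPC CB and 32078 to 34730 CPM in siAPC Ps. Of the markers of other cell types, 3 of 6 epithelial, 1 of 4 endothelial, 1 of 4 immune and 0 of 4 neuronal genes were listed, and the summed endothelial and immune levels stayed at or below 0.74 and 6.41 CPM. The 3 listed epithelial genes, Cdh1, Krt8 and Krt14, summed to 268 to 354 CPM in siControl CB and 384 to 395 CPM in siAPC CB, without overlap, and to 263 to 313 CPM and 305 to 342 CPM in Ps, where they overlapped, while Epcam, Krt18 and Krt5 were not listed. The nuclear RNAs Malat1 and Neat1 summed to 643 to 892 CPM in siControl CB and 126 to 308 CPM in siControl Ps, and to 422 to 572 CPM in siAPC CB and 105 to 238 CPM in siAPC Ps. The fibroblast and nuclear sums thus moved with the fraction. In CB the fibroblast and epithelial sums were higher and the nuclear sum lower with siAPC, without overlap, and in Ps the fibroblast sum was higher without overlap. Their part in the results was not tested. In 4 libraries (siAPC CB 2, siAPC Ps 2, siControl Ps 2 and siControl CB 3) a gene's deviation from its group mean fell with its GC content, with Spearman coefficients of -0.525 to -0.645 across 9878 genes. The other libraries ran from -0.039 in siAPC Ps 1 to 0.535 in siAPC CB 3. Among them, siAPC Ps 4 was at 0.504, siControl CB 1 at 0.442, siControl Ps 3 at 0.436 and siAPC Ps 3 at 0.432. The targeted gene Apc was measured first, at 2.61 ± 0.65 in siControl CB and 0.93 ± 0.38 in siAPC CB (log2 CPM, SD, n = 4), and fell by 1.67 ± 0.25 in CB (SE, limma adjusted p = 0.000142) and by 1.84 ± 0.25 in Ps (limma adjusted p = 3.11e-05).

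Levels were compared between genes as log2 CPM per kb of merged exons (mean ± SD, n = 4), since longer transcripts give more fragments. In siControl CB the order was led by Gpc1, a glypican that holds Wnts and growth factors at the cell surface, at 6.81 ± 0.20 per kb. Tcf7l1, the TCF known mainly as a repressor, followed at 5.92 ± 0.15 and Fzd2 at 5.47 ± 0.14, and these 3 did not overlap each other over libraries. With the longest transcript as length, Wls (5.997 ± 0.113) stood above Fzd2, whose value was unchanged. Wls (4.69 ± 0.11), Dvl1 (4.56 ± 0.07), Fzd7 (4.40 ± 0.15), Lrp5 (4.09 ± 0.14) and Ryk (4.01 ± 0.02) came next, each overlapping its neighbour in the order. The lowest were Lef1 at -4.17 ± 0.19, Celsr3 at -5.18 ± 0.26 and Celsr2 at -5.62 ± 0.56, the latter pair overlapping.

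**Figure D1:**
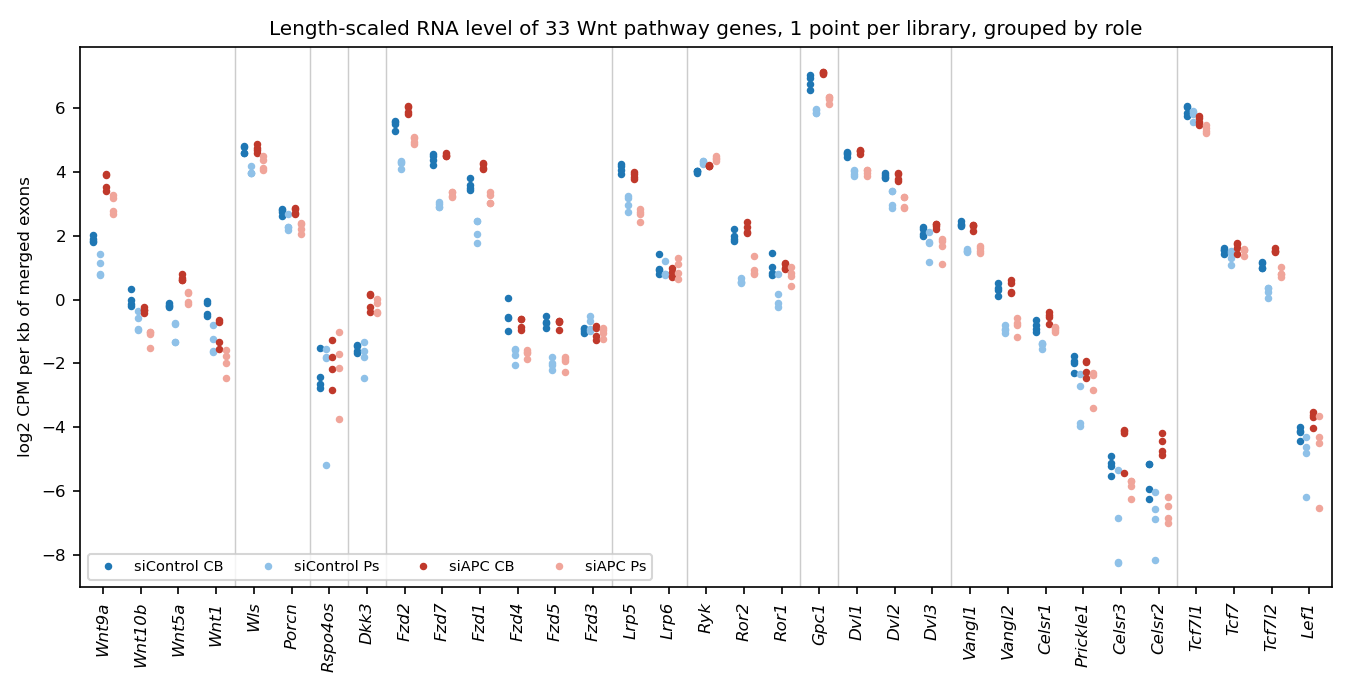
RNA level of each gene as log2 CPM per kb of merged exons (y axis) in every library, with genes grouped by role and ordered within a role by their siControl CB mean (x axis), 4 points per group in 4 colours. Gpc1 was highest at 6.81 in siControl CB and Celsr2 lowest at -5.62, and most genes had lower points in Ps than in CB.

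Within each role with several genes, 1 gene held the largest share of the length-scaled RNA, whether merged exons or the longest transcript was taken as length. Shares are given for merged exons. Wnt9a made up 57.6% ± 3.4 of ligand RNA in siControl CB (SD, n = 4), with Wnt10b at 15.7%, Wnt5a at 13.8% and Wnt1 at 13.0%, whose levels overlapped. Fzd2 made up 55.9% ± 1.4 of Frizzled RNA, Fzd7 26.6% ± 1.2 and Fzd1 15.1% ± 2.3, while Fzd3, Fzd4 and Fzd5 stayed at 0.64% to 0.93%. Of the coreceptors, Lrp5 held 89.2% ± 2.8 and Lrp6 the rest. Ryk, a Wnt-binding pseudokinase, held 72.7% ± 2.3 of the RNA of the Ror and Ryk receptors. Wls, which carries Wnts to the cell surface, held 79.3% ± 2.2 beside Porcn, which attaches their lipid. Vangl1 held 70.8% ± 1.0 of planar cell polarity RNA and Dvl1 55.3% ± 1.0 of Dishevelled RNA (49.3% by longest transcript). Tcf7l1 held 92.3% ± 0.8 of TCF/LEF RNA, against 4.4% for Tcf7, 3.2% for Tcf7l2 and 0.09% for Lef1. By longest transcript, Tcf7l2 held 5.8% and Tcf7 3.6%.

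The comparison of Ps with CB asks where these RNAs lie in the cell. In siControl, 25 of the 33 genes were lower in Ps than in CB at an adjusted p below 0.05 (75.8%), where 31.2% of all genes were lower, and 1 gene, Ryk, was higher (3.03%), where 29.1% of all genes were higher. The median log2 Ps/CB was -0.83 over the 33 genes and -0.001 over all genes. In siAPC, 24 genes were lower (72.7%, against 30.9% of all genes) and again Ryk alone was higher (against 29.8%), with a median of -0.71 over the 33 and 0.02 over all genes. Of the genes lower in Ps, 23 were so with both siRNAs, 2 only with siControl (Prickle1 and Ror1) and 1 only with siAPC (Tcf7l1). In bulk fractions, fewer cells contributing an RNA and less of that RNA per cell cannot be told apart, and the values are relative to the other RNAs of the same fraction.

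The study's rule for localized RNAs is a fold change above 2 and a p below 0.05, taken here as unadjusted. By this rule none of the 33 genes was Ps-enriched, where 7.19% of all genes were in siControl and 7.67% in siAPC. By the mirror rule, 12 genes were CB-enriched in siControl (36.4%, against 6.82% of all genes) and 8 in siAPC (24.2%, against 5.05%). These shares of all genes are for the deposited scaling only. Scaling to total listed reads, which moved the siControl median of all genes to -0.30, gave 19 in siControl. A loess correction for GC content and transcript length, chosen after seeing the data, gave 2 with each siRNA. With the deposited scaling, all 8 were among the 12. These counts include Celsr2 and Celsr3, which reached the level of the table only in siAPC CB and so had to be high in that group. Over the other 31 genes, 10 were CB-enriched and 23 lower in Ps in siControl, and 6 and 22 in siAPC. Fzd1, Fzd5, Fzd7, Lrp5, Ror2, Vangl2, Celsr2 and Celsr3 were CB-enriched with both siRNAs, and Fzd2, Fzd4, Prickle1 and Wnt1 in siControl only. Fzd1 in siAPC lay at the threshold, with CB 2.00-fold over Ps, and Fzd2 just outside it at 1.95-fold.

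Most receptor RNAs were lower in Ps. In siControl, Fzd7 measured 6.67, 6.74, 6.39 and 6.54 in CB libraries 1 to 4 and 5.07, 5.07, 5.23 and 5.18 in the Ps libraries (log2 CPM). The Ps libraries were all lower, with CB 2.73-fold over Ps (log2 Ps/CB -1.45 ± 0.07 SE, limma adjusted p = 1.37e-11), and in siAPC the log2 ratio was -1.22 ± 0.07 (limma adjusted p = 1.68e-10). Ror2, a receptor tyrosine kinase for Wnt5a, had log2 ratios of -1.42 ± 0.12 and -1.24 ± 0.12. Fzd1 stood at -1.40 ± 0.13 and -1.002 ± 0.131, Fzd2 at -1.23 ± 0.08 and -0.96 ± 0.08, Fzd5 at -1.31 ± 0.16 and -1.22 ± 0.16, and Fzd4 at -1.22 ± 0.19 and -0.94 ± 0.19. Fzd5 shares 17.8% of its exon bases with Gm38058, an unlisted gene on the opposite strand. The coreceptor Lrp5 stood at -1.07 ± 0.10 and -1.21 ± 0.10. All of these passed the adjusted test in both siRNAs, and their Ps libraries lay below every CB library. Family members with a different distribution were Fzd3 (0.19 ± 0.13 and -0.01 ± 0.13) and Lrp6 (-0.12 ± 0.14 and 0.15 ± 0.14), neither of which passed the test. Lrp6 made up 10.8% ± 2.8 of coreceptor RNA in siControl CB and 18.9% ± 4.8 in Ps, without overlap of the libraries, and 10.8% ± 1.2 and 23.8% ± 5.3 in siAPC.

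With the deposited scaling, Ryk was the only one of the 33 genes called higher in Ps. Its siControl CB libraries measured 6.21, 6.20, 6.15 and 6.19 and its Ps libraries 6.47, 6.43, 6.51 and 6.51 (log2 CPM). The spread within a group was small and every Ps library was higher, by 0.29 ± 0.05 (SE, limma adjusted p = 4.88e-05) or 1.22-fold, with 0.23 ± 0.05 in siAPC (limma adjusted p = 0.000596). Scaling the libraries to their total listed reads moved the median of all genes to -0.30 in siControl and -0.14 in siAPC, and on that scale Ryk was at -0.0054 in siControl and 0.07 in siAPC, neither of which passed the test. Shares within a role do not depend on the scaling. The share of Ryk in Ror and Ryk receptor RNA was 72.7% ± 2.3 in siControl CB and 88.2% ± 1.6 in siControl Ps, and 73.0% ± 1.3 and 85.2% ± 1.2 in siAPC. Such a share also rises where Ror1 and Ror2 fall, and in siControl their log2 Ps/CB was -0.86 and -1.42. It therefore does not tell whether Ryk itself was higher in Ps.

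**Figure D2:**
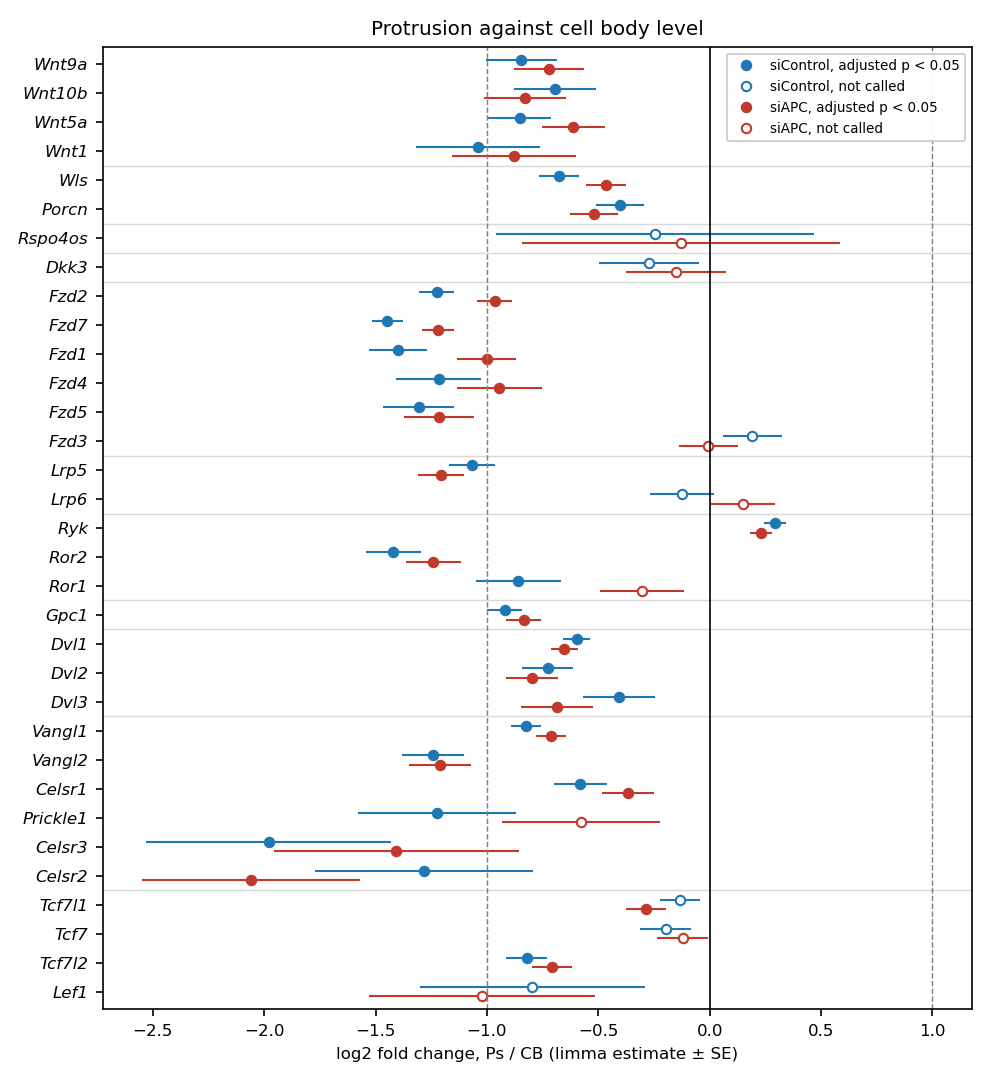
log2 fold change of Ps over CB (x axis, limma estimate with SE bars) for each gene (y axis, grouped by role) in siControl (blue) and siAPC (red), where filled points passed an adjusted p of 0.05 and dashed lines mark the 2-fold thresholds. Ryk alone had filled points above 0, at 0.29 and 0.23, and no point passed the line for Ps enrichment.

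All 4 Wnt ligand RNAs were lower in Ps with both siRNAs, with siControl log2 ratios from -1.04 ± 0.28 for Wnt1 to -0.69 ± 0.18 for Wnt10b. Within the ligands, Wnt9a held 57.6% in siControl CB and 57.2% ± 5.3 in siControl Ps. Wls (-0.68 ± 0.09 and -0.47 ± 0.09) and Porcn (-0.40 ± 0.11 and -0.52 ± 0.11) were lower in Ps, as were Gpc1 (-0.92 ± 0.08 and -0.84 ± 0.08) and all 3 Dishevelled genes, whose siControl ratios ran from -0.73 to -0.41. Dvl2 shares 19.7% of its exon bases with other genes, Acadvl on the opposite strand and the microRNA gene Mir324 on the same strand, and whether counting used strand is not given in the sources used here. Of the planar cell polarity genes, Vangl2 (-1.24 ± 0.14 and -1.21 ± 0.14) and Vangl1 (-0.82 ± 0.07 and -0.71 ± 0.07) were lower in Ps in every library. Celsr1 stood at -0.58 ± 0.12 and -0.37 ± 0.12.

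For Celsr2 and Celsr3 the calls rested on few reads. Celsr2 had 3 to 5 reads in siControl CB and 0 to 2 in siControl Ps, and 7 to 12 and 1 to 2 in siAPC. Celsr3 had 4 to 9 and 0 to 4 in siControl, and 5 to 14 and 2 to 4 in siAPC. The fitted sizes of such genes depend on the offset added to the reads. Celsr2 lost its siControl call without siControl CB 1, siControl CB 2 or siControl Ps 1 (-1.13 to -0.86, limma adjusted p = 0.0835 to 0.117), and Celsr3 its siAPC call without siAPC CB 1, 3 or 4 or siAPC Ps 1 or 4 (-1.42 to -1.28, limma adjusted p = 0.0533 to 0.0824). With the replicate number as a block, Celsr2 was no longer called in siControl (limma adjusted p = 0.0594). With the loess on GC content and length, Celsr2 stood at -0.41 in siControl and -1.09 in siAPC and Celsr3 at -1.12 and -0.45, and neither gene was called with either siRNA (limma adjusted p = 0.0608 to 0.484). Prickle1, with 3 to 22 reads per library, was at -1.23 ± 0.35 in siControl and -0.58 ± 0.35 in siAPC, and only the former passed the test. The difference between these 2 ratios, 0.65 ± 0.50, did not.

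Of the TCF/LEF genes, Tcf7l2 was lower in Ps with both siRNAs (-0.82 ± 0.09 and -0.71 ± 0.09, limma adjusted p = 2.61e-07 and 2.02e-06). The abundant Tcf7l1 was at -0.13 ± 0.09 in siControl, which did not pass the test, and at -0.29 ± 0.09 in siAPC (limma adjusted p = 0.00921), with overlapping libraries. Tcf7 (-0.20 ± 0.11 and -0.12 ± 0.11) and Lef1 (-0.80 ± 0.51 and -1.02 ± 0.51, 1 to 16 reads per library) did not pass. Neither did Dkk3 (-0.27 ± 0.22 and -0.15 ± 0.22) or Rspo4os (-0.25 ± 0.71 and -0.13 ± 0.71). Lef1 shares 13.7% of its exon bases with the unlisted antisense gene Gm43352.

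Ps/CB ratios moved with GC content and length across all genes. Over 12426 genes the Spearman coefficient of the siControl ratio was -0.333 with GC content and -0.319 with transcript length, and in siAPC -0.441 and -0.279. The 12 CB-enriched genes had a median GC content of 55.2% and a median length of 5530 bases, against 50.1% and 3158 bases for all genes. After a loess fit on both properties in every library, which was chosen after seeing the data, 18 of the 33 genes were lower in Ps in siControl (26.9% of all genes) and 13 in siAPC (23.9% of all genes). The median log2 Ps/CB of the 33 genes was then -0.59 in siControl and -0.45 in siAPC. Fzd1, Fzd2, Fzd4, Fzd5, Fzd7, Lrp5, Ror2, Tcf7l2, Vangl1, Vangl2, Wls, Wnt10b and Wnt5a were called lower in both, and Ryk was called higher in both. Calls lost with siAPC included Wnt9a (-0.24, limma adjusted p = 0.124), Wnt1 (-0.45, limma adjusted p = 0.153) and Gpc1 (-0.15, limma adjusted p = 0.0775). Porcn, Dvl1, Dvl2 and Dvl3 were called lower with neither siRNA. The estimates of Dvl1 (0.08 and 0.10) and Celsr1 (0.31 and 0.62) turned positive, as did that of Tcf7l1 in siAPC (0.24). Tcf7l1 was then called higher in Ps with both siRNAs and Celsr1 in siAPC. Without the 4 libraries that fall with GC content, 26 genes were lower in Ps with each siRNA and Ryk was the gene called higher. The shares of all genes given earlier are for all 16 libraries and cannot be set beside this count. In that fit the median log2 Ps/CB of the 33 genes was -0.83 in siControl and -0.78 in siAPC, against 0.004 and 0.009 over all genes.

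The interaction asks whether the Ps/CB ratio of a gene differs between the siRNAs. With limma, 0 of the 33 genes passed an adjusted p of 0.05 in either direction, where 0.0% of all genes were higher and 0.0231% lower, and 0 passed with voom weights. At an unadjusted p below 0.05, 3 genes had a higher ratio in siAPC, where 2.07% of all genes did, and 0 a lower ratio, where 1.71% did. All were Frizzled genes, with differences of 0.40 ± 0.19 for Fzd1, 0.26 ± 0.11 for Fzd2 and 0.23 ± 0.10 for Fzd7 (SE). Their unadjusted p-values in the limma fit were 0.0455, 0.0303 and 0.0367, and the limma adjusted p was 0.981 for each. The siAPC ratio was the higher one in 4 of 4 replicate numbers for Fzd1, 3 of 4 for Fzd2 and 2 of 4 for Fzd7. Same-numbered libraries did not correlate in every pair that involved siControl CB, so these counts rest in part on arbitrary pairs. Of the 16 fits that each left out 1 library, the unadjusted p rose above 0.05 in 9 for Fzd1, 7 for Fzd2 and 9 for Fzd7. With no intensity trend in limma, the unadjusted p was 0.0753 for Fzd1 and 0.0503 for Fzd2, and with the replicate block it was 0.0613 for Fzd7. Leaving out the 4 libraries whose values fell with GC content gave an unadjusted limma p of 0.11 for Fzd1.

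The comparison of siAPC with siControl asks how these RNAs respond to less Apc. In CB, 8 of the 33 genes were higher in siAPC (24.2%, against 7.52% of all genes) and 1 was lower (3.03%, against 5.87%). In Ps, 11 were higher (33.3%, against 10.7%) and 2 lower (6.06%, against 11.2%).  Wnt9a, Wnt5a, Dkk3, Fzd1, Fzd2, Gpc1 and Tcf7l2 were higher and Tcf7l1 lower in both fractions. Ryk was called only in CB, and Celsr1, Fzd7, Ror1, Ror2 and Lrp5 only in Ps. The median log2 change was 0.11 over the 33 genes and -0.04 over all genes in CB, and 0.23 and -0.03 in Ps. These medians include Celsr2, Celsr3 and Rspo4os, which reached the level of the table only in siAPC libraries. Positive changes of these genes were favoured in advance. The CB median of the 33 genes was 0.070 without siAPC CB 1 and 0.069 when only genes with a mean log2 CPM of at least 1 were fitted. The Ps median of the 33 genes was 0.12 without siControl Ps 4 and 0.14 without siControl Ps 1. It was 0.08 with quantile normalization, 0.10 when only genes with a mean log2 CPM of at least 1 were fitted, and 0.40 when scaled to total listed reads, which moved the median of all genes to 0.14.

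Of the 8 genes called in both fractions, Fzd1, Tcf7l1, Tcf7l2 and Wnt9a had entries in the RefSeq promoter table (GRCm38.p6, 250 bases before to 50 after a start site), and Dkk3, Fzd2, Gpc1 and Wnt5a had none. Windows of Wnt9a, the most increased, and of the oppositely changed Tcf7l1 and Tcf7l2 are given 5′ to 3′ on the gene's strand, with any TCF/LEF motif in capitals. The motifs searched, on both strands, were CTTTGAT and CTTTGTT.
Wnt9a, chr11:59306680-59306979, plus strand: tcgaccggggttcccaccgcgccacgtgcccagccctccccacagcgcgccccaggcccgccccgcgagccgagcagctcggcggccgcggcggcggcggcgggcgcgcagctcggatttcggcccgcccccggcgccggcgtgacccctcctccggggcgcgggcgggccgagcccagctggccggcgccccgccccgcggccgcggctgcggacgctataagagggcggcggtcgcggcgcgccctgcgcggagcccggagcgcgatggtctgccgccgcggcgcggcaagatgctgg
Tcf7l1, chr6:72788996-72789295, minus strand: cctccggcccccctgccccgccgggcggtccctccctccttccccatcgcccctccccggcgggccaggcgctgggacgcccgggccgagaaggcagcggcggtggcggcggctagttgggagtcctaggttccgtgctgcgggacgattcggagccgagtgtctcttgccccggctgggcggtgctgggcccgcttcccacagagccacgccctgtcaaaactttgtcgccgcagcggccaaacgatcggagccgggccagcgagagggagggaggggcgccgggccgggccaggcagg
Tcf7l2 at the gene's 5′ end, chr19:55741560-55741859, plus strand: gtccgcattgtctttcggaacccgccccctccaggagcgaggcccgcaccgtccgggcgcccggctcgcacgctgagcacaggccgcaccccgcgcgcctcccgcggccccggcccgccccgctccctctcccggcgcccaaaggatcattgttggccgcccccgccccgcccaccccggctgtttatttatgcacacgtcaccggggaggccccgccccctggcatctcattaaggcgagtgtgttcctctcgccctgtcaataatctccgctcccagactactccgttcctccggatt
Tcf7l2 at a start site within the gene, chr19:55895071-55895370, plus strand: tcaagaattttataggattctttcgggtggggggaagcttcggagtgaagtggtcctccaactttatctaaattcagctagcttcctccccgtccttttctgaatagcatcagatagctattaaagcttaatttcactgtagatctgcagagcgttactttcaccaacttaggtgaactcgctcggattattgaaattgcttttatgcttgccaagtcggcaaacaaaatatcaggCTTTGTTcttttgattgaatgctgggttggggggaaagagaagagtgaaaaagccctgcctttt

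The window at the gene's 5′ end was GC-rich in all 3 genes, with 83.3% GC and 58 CpG in Wnt9a, 75.3% and 34 in Tcf7l1, and 70.0% and 34 in Tcf7l2, whereas the internal Tcf7l2 window had 42.0% and 7. Of the 5 windows of the 4 genes, that internal window held the only motif, CTTTGTT on the sense strand 14 bases before the start site. The motifs occurred in 6.2% of 11737 promoter windows of listed genes and in 2 of 28 windows of the genes studied. A match is a description of these letters and not evidence of binding, and the gene counts do not tell which Tcf7l2 start site was used.

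Wnt9a, on chr11:59306928-59333552 (GRCm38/mm10), encodes a ligand known from joint development and had the largest change among the 33 genes. Its siControl CB libraries measured 3.55, 3.52, 3.62 and 3.76 and its siAPC CB libraries 5.14, 5.24, 5.68 and 5.64 (log2 CPM). In Ps the values were 2.50, 2.55, 3.16 and 2.87 with siControl and 4.51, 4.42, 4.90 and 4.99 with siAPC. Every siAPC library was above every siControl library of its fraction, by 3.51-fold in CB (log2 change 1.81 ± 0.16 SE, limma adjusted p = 1.71e-07) and 3.83-fold in Ps (1.94 ± 0.16, limma adjusted p = 5.14e-08). Its reads rose from 195 to 285 per library in siControl CB to 741 to 994 in siAPC CB.

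Wnt5a, on chr14:28504750-28527448, encodes the main ligand of Ror receptors. It measured 2.76, 2.73, 2.81 and 2.85 in siControl CB and 3.58, 3.58, 3.65 and 3.77 in siAPC CB (log2 CPM). In Ps it measured 1.63, 2.23, 2.22 and 1.65 with siControl and 2.90, 2.84, 3.17 and 3.21 with siAPC. The groups did not overlap in either fraction, and the change was 0.86 ± 0.14 in CB (SE, limma adjusted p = 0.000337) and 1.10 ± 0.14 in Ps (limma adjusted p = 1.5e-05).

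The other ligand RNAs, Wnt1 and Wnt10b, lie 11706 bases apart on chromosome 15 and had negative estimates. Wnt1 had 29 to 51 reads in siControl CB and 17 to 29 in siAPC CB, without overlap of the log2 values, and a log2 change of -0.78 ± 0.28 that did not pass the test (limma adjusted p = 0.0722). In Ps it was -0.62 ± 0.28 (limma adjusted p = 0.126). Wnt10b was at -0.33 ± 0.18 in CB (limma adjusted p = 0.276) and -0.46 ± 0.18 in Ps (limma adjusted p = 0.079), again without overlap of the libraries in either fraction. The composition of ligand RNA differed between the siRNAs. Wnt9a made up 81.7% ± 1.5 of it in siAPC CB and 81.6% ± 1.7 in siAPC Ps, where the siControl values were 57.6% and 57.2%, and its length-scaled ratio to Wnt5a was 4.18 in siControl CB and 8.08 in siAPC CB. Wnt1 held 13.0% ± 2.0 in siControl CB and 3.05% ± 0.42 in siAPC CB. Wls and Porcn did not pass the test in either fraction, with changes of -0.10 to 0.24.

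**Figure D3:**
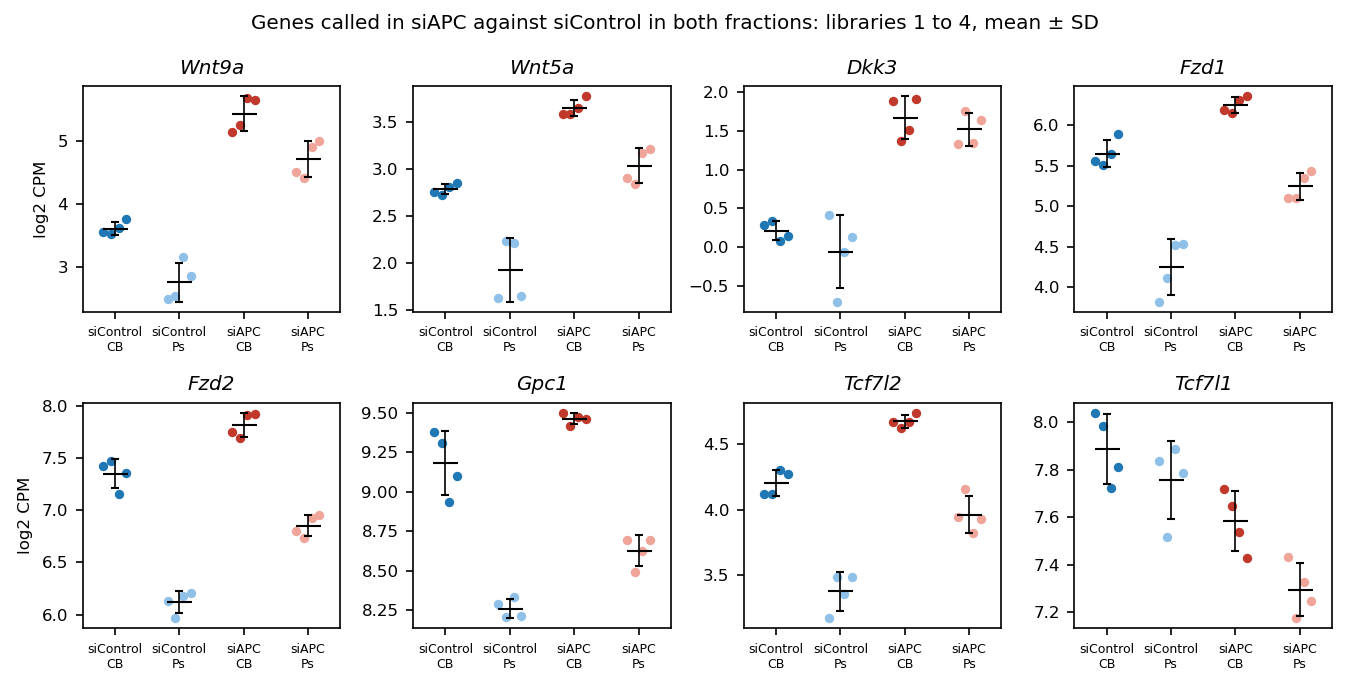
log2 CPM (y axis) of the 8 genes called in both fractions, with libraries 1 to 4 of each group (x axis) as points and the mean ± SD in black, on an axis of its own for each gene. Wnt9a rose from a mean of 3.61 to 5.42 in CB, and Tcf7l1 was the gene with lower siAPC points, falling from 7.89 to 7.58 in CB.

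Dkk3, on chr7:112116017-112159057, encodes a secreted protein of the Dickkopf family and was the only secreted antagonist listed. In siControl CB it measured 0.29, 0.34, 0.08 and 0.15 and in siAPC CB 1.89, 1.37, 1.51 and 1.92 (log2 CPM). In Ps the values were 0.41, -0.71, -0.07 and 0.13 with siControl and 1.33, 1.76, 1.35 and 1.64 with siAPC. It was low, with 7 to 24 reads per siControl library and 39 to 80 per siAPC library, and all siAPC libraries were higher. The change was 1.46 ± 0.22 in CB (SE, limma adjusted p = 0.000158) and 1.58 ± 0.22 in Ps (limma adjusted p = 4.25e-05), or 2.75-fold and 2.99-fold.

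Of the 6 Frizzled genes, Fzd1 and Fzd2 were higher in both fractions, Fzd7 in Ps, and the scarce Fzd3, Fzd4 and Fzd5 did not pass the test. Fzd1 (chr5:4753839-4758035) measured 5.55, 5.51, 5.65 and 5.88 in siControl CB and 6.19, 6.14, 6.30 and 6.35 in siAPC CB (log2 CPM). In Ps it measured 3.83, 4.12, 4.52 and 4.53 and then 5.10, 5.10, 5.35 and 5.43. All siAPC libraries were higher, by 0.60 ± 0.13 in CB (SE, limma adjusted p = 0.00415) and 0.99 ± 0.13 in Ps (limma adjusted p = 1.8e-05). Fzd2 (chr11:102604396-102608058) measured 7.42, 7.47, 7.15 and 7.35 in siControl CB and 7.75, 7.69, 7.91 and 7.92 in siAPC CB, and 6.14, 5.97, 6.18 and 6.21 and then 6.80, 6.74, 6.92 and 6.95 in Ps. It too had no overlap, with changes of 0.47 ± 0.08 (limma adjusted p = 0.00038) and 0.73 ± 0.08 (limma adjusted p = 1.84e-06). Fzd7 was at 0.11 ± 0.07 in CB, which did not pass, and rose by 0.33 ± 0.07 in Ps (limma adjusted p = 0.00204), and the difference between its changes is the interaction given above. Fzd3, Fzd4 and Fzd5 had changes of -0.26 to 0.05. The share of Fzd2 in Frizzled RNA was 55.9% ± 1.4 in siControl CB and 59.1% ± 1.1 in siAPC CB, and that of Fzd7 26.6% ± 1.2 and 21.9% ± 1.1, in both cases without overlap.

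Neither coreceptor RNA was called higher. Lrp5 was at -0.22 ± 0.10 in CB, which did not pass, and fell by 0.36 ± 0.10 in Ps (limma adjusted p = 0.0178), with overlapping libraries. The Ps call was lost without siControl Ps 3 or 4 or siAPC Ps 2 (-0.31 to -0.28, limma adjusted p = 0.0607 to 0.0669), and also after scaling to total listed reads (-0.19, limma adjusted p = 0.164). Lrp6 was at -0.20 ± 0.14 and 0.07 ± 0.14. Ror1 and Ror2 were higher in Ps, by 0.59 ± 0.19 (limma adjusted p = 0.0314) and 0.40 ± 0.12 (limma adjusted p = 0.0246), and in CB stood at 0.04 ± 0.19 and 0.22 ± 0.12. The Ror1 call was lost without siControl Ps 1, 3 or 4 or siAPC Ps 1, 2 or 3 (0.46 to 0.60, limma adjusted p = 0.0574 to 0.114) and with no intensity trend (limma adjusted p = 0.0575). The Ror2 call was lost without siControl Ps 1, 2 or 4 or siAPC Ps 4 (0.28 to 0.40, limma adjusted p = 0.0501 to 0.098), with voom weights (limma adjusted p = 0.0818) and with quantile normalization (limma adjusted p = 0.0719). Ryk rose by 0.18 ± 0.05 in CB (limma adjusted p = 0.0219), a call lost without siControl CB 4 or siAPC CB 3 (0.16 to 0.18, limma adjusted p = 0.0513 to 0.0722), and was at 0.11 ± 0.05 in Ps (limma adjusted p = 0.112). The libraries of Ryk did not overlap in either fraction.

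Gpc1, on chr1:92831645-92860779 and the most abundant of the 33 genes, measured 9.38, 9.31, 8.94 and 9.10 in siControl CB and 9.50, 9.42, 9.47 and 9.46 in siAPC CB (log2 CPM). In Ps it measured 8.29, 8.21, 8.33 and 8.21 with siControl and 8.70, 8.49, 8.63 and 8.70 with siAPC. The groups did not overlap, though in CB the gap was narrow, and the change was 0.28 ± 0.08 in CB (SE, limma adjusted p = 0.0229) and 0.37 ± 0.08 in Ps (limma adjusted p = 0.00237). The CB call was lost without siControl CB 3 or 4 or siAPC CB 1, 3 or 4 (0.20 to 0.28, limma adjusted p = 0.0555 to 0.0769). Gpc1 shares 18.9% of its exon bases with Ankmy1 on the opposite strand, a gene that was not listed. Of the Dishevelled genes none passed the test, with changes of -0.10 to 0.20. Among the planar cell polarity genes, Celsr1 rose in Ps by 0.50 ± 0.12 (limma adjusted p = 0.00457) and the other 5 did not pass in either fraction. Celsr2 and Celsr3 had positive CB estimates of 1.06 ± 0.49 and 0.73 ± 0.55, which did not pass and rest on 3 to 14 reads per library. Both genes reached the level of the table only in siAPC CB, so the positive direction was favoured in advance and is not a result.

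**Figure D4:**
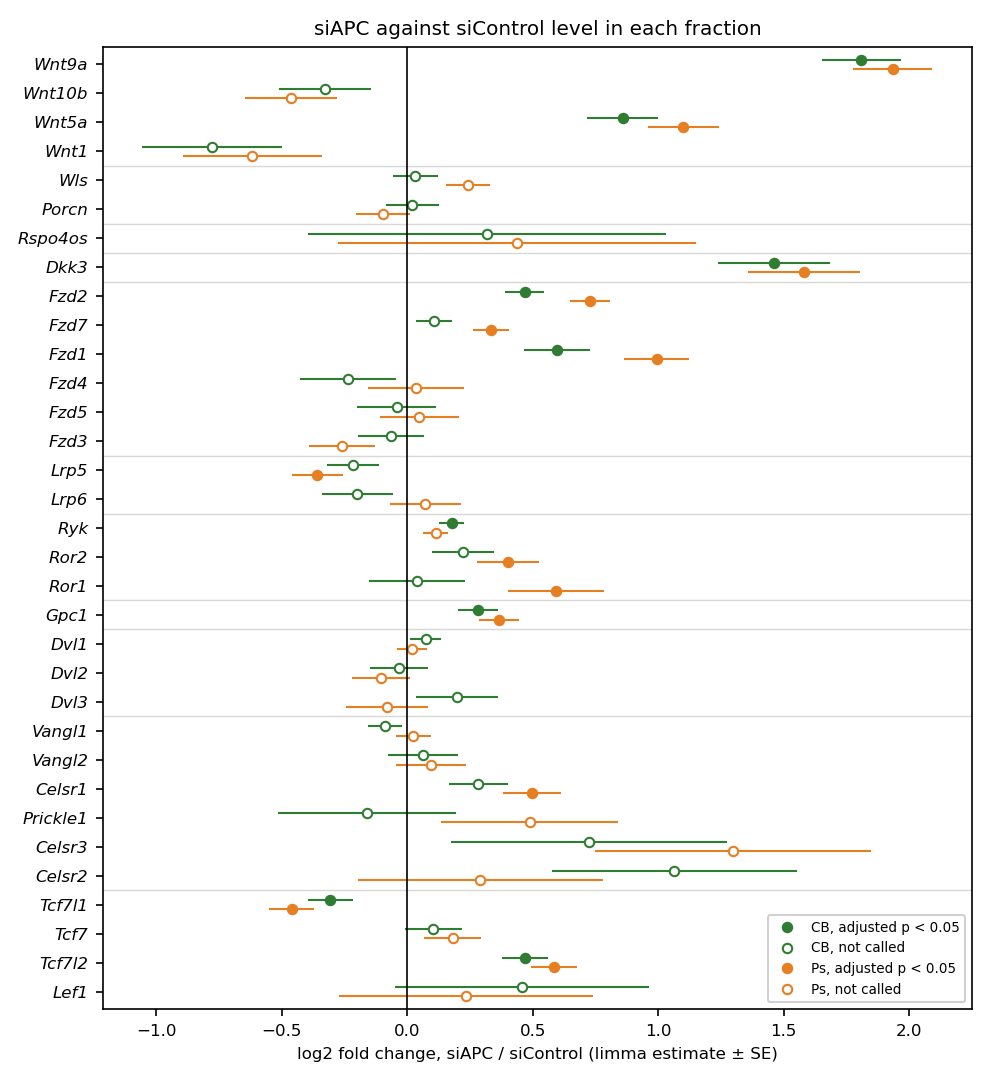
log2 fold change of siAPC over siControl (x axis, limma estimate with SE bars) for each gene (y axis, grouped by role) in CB (green) and Ps (orange), where filled points passed an adjusted p of 0.05. Wnt9a and Dkk3 lay farthest to the right, at 1.81 and 1.46 in CB, and Tcf7l1 and Lrp5 had the filled points below 0.

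Of the 4 TCF/LEF genes, Tcf7l2 was higher and Tcf7l1 lower with siAPC, and Tcf7 and Lef1 did not pass the test. Tcf7l2, on chr19:55741820-55933654, measured 4.12, 4.12, 4.30 and 4.27 in siControl CB and 4.66, 4.62, 4.67 and 4.74 in siAPC CB (log2 CPM). In Ps it measured 3.18, 3.49, 3.36 and 3.49 with siControl and 3.94, 4.16, 3.82 and 3.93 with siAPC. Every siAPC library was higher, by 0.47 ± 0.09 in CB (SE, limma adjusted p = 0.00147) and 0.58 ± 0.09 in Ps (limma adjusted p = 0.000113).

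Tcf7l1, on chr6:72626378-72789254, measured 8.04, 7.98, 7.72 and 7.81 in siControl CB and 7.72, 7.65, 7.54 and 7.43 in siAPC CB (log2 CPM). In Ps it measured 7.84, 7.52, 7.89 and 7.79 with siControl and 7.43, 7.18, 7.33 and 7.25 with siAPC. The siAPC libraries were all lower, although in CB the nearest libraries of the groups were close together. It fell by 0.31 ± 0.09 in CB (SE, limma adjusted p = 0.0274) and by 0.46 ± 0.09 in Ps (limma adjusted p = 0.000924). The CB call, the only one in that direction, was lost without siControl CB 1 or 2 or siAPC CB 3 or 4 (-0.29 to -0.25, limma adjusted p = 0.0741 to 0.11) and without an intensity trend in the fit (limma adjusted p = 0.0597). Tcf7l1 shares 4.6% of its exon bases with the listed antisense gene Gm15401.

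Tcf7l1 remained the most abundant TCF/LEF RNA, holding 92.3% ± 0.8 in siControl CB and 88.9% ± 1.3 in siAPC CB, and 93.5% ± 1.2 and 89.5% ± 1.3 in Ps. The length-scaled level of Tcf7l1 was 28.8 times that of Tcf7l2 in siControl CB and 16.8 times in siAPC CB, and 46.5 and 22.5 times in Ps. The share of Tcf7l2 was 3.2% ± 0.5 in siControl CB and 5.3% ± 0.6 in siAPC CB. Its level per kb, which lay below that of Tcf7 in siControl CB (1.07 ± 0.10 against 1.53 ± 0.07), overlapped it in siAPC CB (1.54 ± 0.05 against 1.64 ± 0.16). These values depend on the length used. By longest transcript Tcf7l2 lay above Tcf7 in siControl CB (2.31 ± 0.10 against 1.62 ± 0.07) and in siAPC CB (2.78 ± 0.05 against 1.73 ± 0.16), and the level of Tcf7l1 was 15.7 times that of Tcf7l2 in siControl CB and 9.19 times in siAPC CB. Tcf7 (0.10 ± 0.11 and 0.18 ± 0.11) and Lef1 (0.46 ± 0.51 and 0.23 ± 0.51) did not pass the test in CB or Ps.

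**Figure D5:**
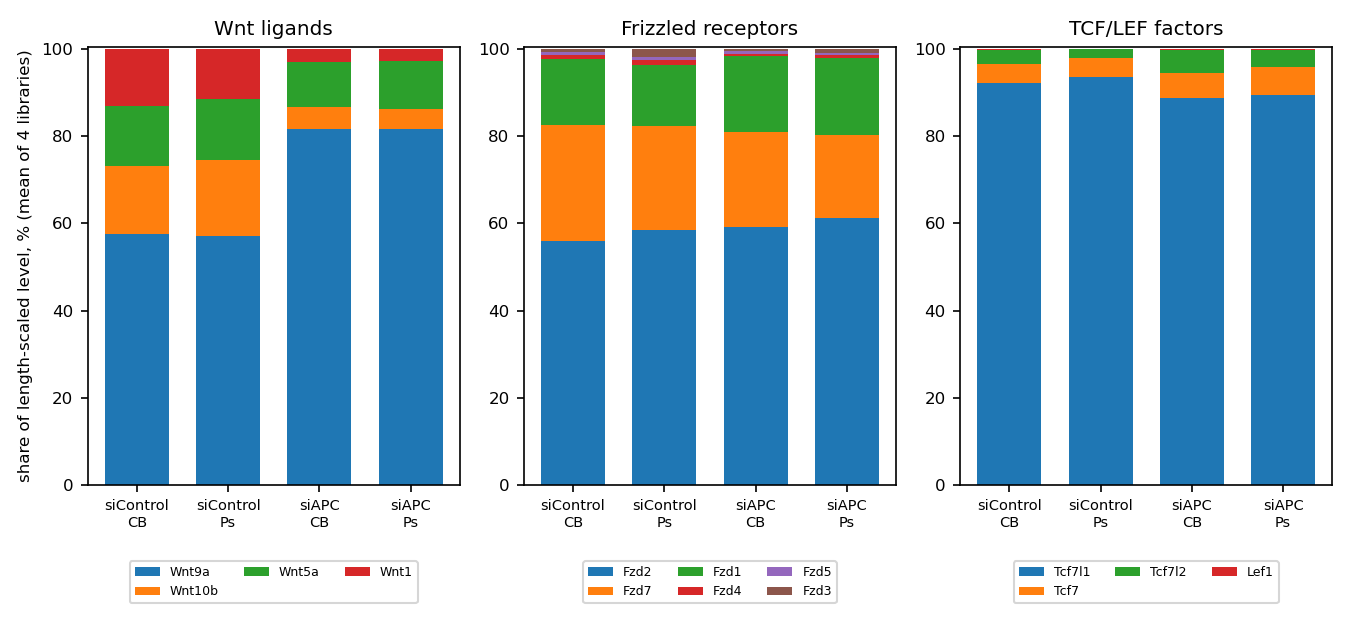
Share of each gene in the length-scaled RNA of its role (y axis, percent, mean of 4 libraries, bars stacked from 0 to 100) for Wnt ligands, Frizzled receptors and TCF/LEF factors in the 4 groups (x axis). Wnt9a rose from 57.6% to 81.7% of ligand RNA in CB, and Tcf7l1 held at least 88.9% of TCF/LEF RNA in each group.

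Other genes of the pathway were described from lists that, like the 33 genes, were chosen with earlier results known. A list of 21 known target genes of β-catenin and TCF held 3 covered by the gene names studied here and 18 others, of which 9 were listed. Of these 9, 6 were higher in siAPC CB and 7 in siAPC Ps, and 0 were lower in either (limma adjusted p below 0.05). Of all genes, 7.52% and 10.7% were higher and 5.87% and 11.2% lower. The targets Myc and Cd44 were called in neither fraction, nor were Lef1 and Tcf7, which are on the list and among the 33. Nkd2 and Rnf43, inhibitors of Dishevelled and of Frizzled receptors, had 0 reads in all siControl libraries and 83 to 118 and 25 to 52 reads in siAPC CB. They could enter the table only through the siAPC libraries, and without them 4 of 7 targets were higher in CB and 5 of 7 in Ps. Ccnd1, a cyclin of the cell cycle, rose by 2.30 ± 0.17 in CB and Apcdd1, a membrane inhibitor of Wnt signalling, by 1.49 ± 0.12 (SE, limma adjusted p = 2.35e-08 and 6.99e-08). Of 11 listed genes of the destruction complex and β-catenin, Apc and Tnks2 were lower in CB and Apc in Ps, and 0 were higher. Of 13 other surface and secreted regulators, siAPC raised 3 in CB and 5 in Ps, among them Apcdd1 and Rnf43 again, and 1 was lower, Draxin in CB. Without Rnf43 these were 2 and 4 of 12. Of 13 nuclear partners of β-catenin and TCF, the corepressor gene Tle3 rose (0.48 ± 0.11 in CB) and Tle2 fell (by 0.45 ± 0.10 in CB) in both fractions, and Cbfa2t2 rose in Ps. In Ps against CB, 9 of the 13 regulators and 9 of the 13 nuclear partners were lower in siControl, where 31.2% of all genes were lower, and 0 and 2 were higher, where 29.1% were.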

How the data were processed

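Strand-specific libraries were made from total RNA of the 16 fractions and sequenced. The study's methods name an mRNA library kit (TruSeq Stranded mRNA), although they also speak of total RNA libraries. The submitters' processing notes name bcl2fastq 1.8.4. Per the study's methods, reads were aligned to mm10 with STAR 2.4.2a in 2 passes and counted per gene with Rsubread, and the counts were transformed with limma-voom 3.26.1. The deposited values are log2 CPM, which the authors obtained after leaving out genes that were low in every library (a log-CPM cutoff of 0.5 by the methods, though the listed values reach lower). The strand setting of the counting is not given in the sources used here.

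From the deposited log2 values, reads per gene were recovered by inverting the voom formula with its 0.5-read offset, and 100% of 208240 values came within 0.01 of a whole number. They were used for depth, read numbers and alternatives only. All intervals between libraries are SD or SE, and no test rests on reads within a library. Levels between genes were divided by merged exon length (GENCODE M21, GRCm38/mm10), which matched 12426 of 13015 symbols and all 33 genes.

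Differences were fitted with limma 3.58.1 in R 4.3.3 (eBayes with its trend option) to the log2 values of all 16 libraries in 4 groups, so that 1 estimate of spread served 5 contrasts, and p-values were adjusted by Benjamini-Hochberg over all 13015 genes. A gene was called at an adjusted p below 0.05. Following the study, enrichment meant a fold change above 2 and a p below 0.05, taken here as unadjusted. Groups came from the sample labels, which do not say whether libraries of a group came from separate cultures, although the study describes them as independent replicates. If they did not, the p-values measure only the spread between these samples.

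The 33 genes, the other gene lists and the GC check were chosen with earlier results of these data known. Genes given full values were those called in siAPC against siControl, those enriched in either fraction, those with an unadjusted interaction p below 0.05, and the most abundant gene of each role. This rule named 25 of the 33. The others appear in ranges and counts, or beside a member of their family. Replicate numbers were tested as pairs by correlating deviations from group means over 10292 genes. Same-numbered libraries correlated in every pair between siAPC CB and siAPC Ps (0.416 to 0.617) and between siControl Ps and siAPC Ps (0.162 to 0.551). The other comparisons had pairs below 0.1. The library whose values fell with GC content was number 2 in siControl Ps, siAPC CB and siAPC Ps, and number 3 in siControl CB. GC content was not removed before the correlation, and whether the numbers pair samples or share this trend was not tested. Alternatives were voom weights, no intensity trend, scaling to total listed reads, quantile normalization, a filter on low genes, another offset and a replicate block. Others left out single libraries or the 4 libraries whose values fell with GC content. A loess correction for GC content and length was added after seeing the data.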

Additional observations from a re-analysis of the deposited data

Results flagged for a closer look

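In 8 of 132 groups of 4 libraries, 1 library lay far enough from the other 3 to exceed the 95% critical value of Dixon's ratio, and chance gives about 1 such group in 20. All values are log2 CPM. Wnt10b was lowest in siAPC Ps 2 at 0.23, or 17 reads, with the nearest library at 0.68. Porcn was highest in siControl Ps 1 at 4.26, with the nearest at 3.85. In siControl Ps 2, Wls was highest at 7.33 with the nearest at 7.11, and Lrp6 was highest at 4.99 with the nearest at 4.59. Rspo4os was lowest in siControl Ps 4 at -4.83, which is 0 reads, with the nearest at -1.46. In siAPC CB 2, Fzd5 was lowest at 1.83 with the nearest at 2.09, Celsr3 lowest at -1.83, or 5 reads, with the nearest at -0.58, and Vangl1 lowest at 4.99 with the nearest at 5.14. Libraries siControl Ps 2, siAPC CB 2 and siAPC Ps 2 are among the 4 whose values fell with GC content, and the part of that trend in these values was not tested.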

How the results depend on the processing

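Of 1691 refits of single genes, 1610 kept direction and call, 75 kept direction without the call and 6 reversed. Scaled to total listed reads, Ryk in siControl Ps against CB reversed to -0.0054. With the loess on GC content and length, chosen after seeing the data, Ps/CB reversed for Dvl1 (0.0842 in siControl and 0.1003 in siAPC), Celsr1 (0.31 and 0.62) and Tcf7l1 in siAPC (0.24), and the cause was not tested. Counts of genes moved by over 1.5 times as follows. With loess, genes higher in Ps became 2 (siControl) and 3 (siAPC), genes lower in Ps in siAPC 13, CB-enriched genes 2 and 2, and genes lower in siAPC CB 3. Scaled to total reads, genes higher in Ps became 0 and 0, CB-enriched genes in siControl 19, and genes lower in siAPC Ps 1. Genes lower in siAPC CB became 2 with voom weights and 0 with no intensity trend. They became 2 when the 4 libraries whose values fell with GC content were left out. A 1.5-fold threshold gave 22 CB-enriched genes in siControl and 20 in siAPC. The shares of all genes given earlier are for the limma fit without these alternatives, except the loess shares of genes lower in Ps. For enrichment they are for the 2-fold rule. Leaving out single libraries gave 23 to 25 genes lower in Ps in siControl and 23 to 25 in siAPC, 10 to 12 and 7 to 9 CB-enriched, 6 to 8 higher and 0 to 1 lower in siAPC CB, and 9 to 12 higher and 1 to 2 lower in siAPC Ps. With 0 to 5 reads in the siControl Ps libraries, differences of Celsr2, Celsr3, Lef1 and Rspo4os rested on few reads. Prickle1 had as few as 3 reads there, and the part of depth was not tested.

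With the replicate number as a block, 24 of the genes were lower in Ps in siControl and 12 higher in siAPC Ps. The shares of all genes given earlier are from the fit without a block. Celsr2 lost its siControl call with the block (limma adjusted p = 0.0594) and Fzd7 its unadjusted interaction p below 0.05, and no other call on a named gene was lost. Same-numbered libraries correlated at a mean of 0.132 between siControl CB and siControl Ps and -0.034 between siControl CB and siAPC CB, where 3 of 8 libraries correlated best with their own number.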
